A study of Mus musculus with 12 samples.

Results

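Keratin-associated protein (Krtap) genes make the sulfur-rich and glycine-rich proteins of the hair shaft, and their transcripts were followed here in mouse skin. Members were all rows of the deposited gene table whose symbol starts with Krtap and a digit, which gave 54 of 18858 genes in 26 numbered subfamilies. Poly(A) RNA was taken from skin of 8-week-old mice of the inbred albino strain BALB/C, the genotype of every group. The labels set out 4 treatment groups of 3 samples, namely PBS, which is phosphate-buffered saline, and TL+L, TSeL and TSeL+L. What TL, TSeL and L abbreviate is left unexplained. Nothing ties the samples to separate animals either, and a p-value here reflects sample-to-sample spread that may be technical.

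Inside the growing hair follicle, cells of the cortex and cuticle first fill with hair keratins, which form filaments, and then with keratin-associated proteins, which form the matrix around the filaments and are cross-linked through their cysteines. The proteins are sorted by subfamily number into high-sulfur, ultra-high-sulfur and high glycine-tyrosine classes. They are made while the follicle is growing, and a resting follicle makes little of either protein family.

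Codon composition differed between the classes, with some members unlike their class. Cysteine codons made up 4.0 to 42.8% of the 21 high-sulfur members (median 20.2%), which come from 14 subfamilies. In the 17 ultra-high-sulfur members of 4 subfamilies they made up 27.2 to 41.5% (median 37.7%). The 14 high glycine-tyrosine members of 7 subfamilies had 29.9 to 69.2% glycine and tyrosine codons (median 63.1%) and at most 16.7% cysteine codons. Krtap16-3 counts as high sulfur by its number but had 59.3% glycine and tyrosine codons and 8.1% cysteine codons. Krtap15, also high sulfur by number, had 4.0% cysteine codons, and Krtap28-13 had 42.8%. Krtap31-1 and Krtap31-2, with 25.4% cysteine codons each, belong to a subfamily number that was not put in a class. The genes are clustered: 23 members lie on chromosome 16, 22 on chromosome 11, 5 on chromosome 7, 3 on chromosome 10 and 1 on chromosome 1.

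Many members shared a promoter feature. RefSeq promoter windows of the GRCm38.p6 build, which run from 250 bases before to 50 after the start, were matched by gene ID for 49 of the 54 members. TATAAA, the core of the TATA box, was present on either strand in 40 of the 49 windows (81.6%), against 14.2% of the windows of all 27025 genes. On the gene's own strand and within 42 to 19 bases before the start, it was present in 29 of the 49 (59.2%) and in 600 of all windows (2.2%). Letters of a LEF/TCF site, the factors that carry Wnt signals in the hair matrix, were searched as CTTTGAA and CTTTGAT on both strands. CTTTGAA was in 9 of 49 windows (18.4%) against 5.3% of all, and CTTTGAT was in 4 (8.2%) against 3.7%. The letters ACGC were in 12 (24.5%) against 55.4% of all. These matches describe letters and are not binding sites. Many of these genes sit beside each other and arose by duplication, so their promoters are not independent.

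The 80 bases before the start of 9 members are shown as examples from each class and subfamily 31. All 9 are among the 29 of 49 windows with TATAAA at that place, and no window without it is shown. TATAAA is in capitals, and sequences read 5′ to 3′ on the gene's strand in RefSeq GRCm38.p6. Krtap8-1, Krtap22-2 and Krtap19-9b are high glycine-tyrosine, Krtap11-1 and Krtap1-5 high sulfur, Krtap5-5 and Krtap17-1 ultra-high sulfur.
Krtap8-1 (chr16:89487953-89488032, minus strand): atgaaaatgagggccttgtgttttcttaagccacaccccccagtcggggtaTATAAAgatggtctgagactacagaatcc
Krtap22-2 (chr16:89010760-89010839, minus strand): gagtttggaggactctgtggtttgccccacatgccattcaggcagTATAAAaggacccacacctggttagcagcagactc
Krtap19-9b (chr16:88932265-88932344, minus strand): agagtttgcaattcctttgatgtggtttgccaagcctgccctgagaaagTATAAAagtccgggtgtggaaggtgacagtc
Krtap11-1 (chr16:89571184-89571263, minus strand): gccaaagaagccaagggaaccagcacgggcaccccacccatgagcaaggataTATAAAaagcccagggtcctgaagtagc
Krtap1-5 (chr11:99581017-99581096, minus strand): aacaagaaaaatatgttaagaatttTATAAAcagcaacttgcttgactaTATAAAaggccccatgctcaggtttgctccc
Krtap5-5 (chr7:142229972-142230051, minus strand): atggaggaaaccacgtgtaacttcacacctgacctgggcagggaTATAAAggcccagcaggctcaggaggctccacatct
Krtap17-1 (chr11:99993995-99994074, minus strand): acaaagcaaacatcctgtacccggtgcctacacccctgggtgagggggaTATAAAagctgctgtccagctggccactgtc
Krtap31-1 (chr11:99907840-99907919, plus strand): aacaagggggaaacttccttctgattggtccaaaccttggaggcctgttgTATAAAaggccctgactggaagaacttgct
Krtap31-2 (chr11:99936211-99936290, plus strand): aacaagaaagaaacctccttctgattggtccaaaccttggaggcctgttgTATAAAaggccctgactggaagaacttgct
In these windows the TATAAA nearest to the start begins 28 to 36 bases before it. Krtap31-1 and Krtap31-2 match at 76 of the 80 positions and at 247 of 300 over the whole window, and their coding sequences are 98.9% identical.

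The 12 columns of expected counts (estimated reads per gene) held 16630580 to 17318158 counts each. Pairs of the 3 TSeL columns were near counting noise, with a mean chi-square over genes of 1.19 to 1.41, as were pairs of the 3 TSeL+L columns (1.38 to 1.49), whereas PBS pairs gave 25.1 to 59.0 and TL+L pairs 60.9 to 184. Each of these 2 sets was averaged and counted as 1 sample, so comparisons used 8 samples and the TSeL and TSeL+L groups have no replicate spread of their own. Of the 54 members 53 passed the filter on low counts and were tested, and Krtap13, with 2 counts in TL+L replicate 1 and 2 in one TSeL+L column, did not. A member that passed through the libraries where it is high had to differ between libraries. Reads of near-identical members cannot be assigned with certainty: the coding sequences of Krtap3-2 and Krtap3-3 are identical, those of Krtap6-1 and Krtap6-5 97.9% identical and those of Krtap4-1 and Krtap4-2 95.5%, and many of these counts are fractional.

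PBS replicate 3 and TL+L replicate 2 stood apart from their groups in Krtap content. In PBS replicate 1 the 54 members had 16 counts together and in PBS replicate 2 they had 28, while PBS replicate 3 had 4549. PBS replicate 3 held 99.0% of all PBS Krtap counts, and 34 members had PBS counts from that library alone. TL+L replicates 1, 2 and 3 had 101881, 8684 and 223401 Krtap counts, which were 0.594%, 0.0516% and 1.30% of all counts. In TSeL the 3 columns had 4, 2 and 1 Krtap counts, and 48 members were at 0 in all 3, where a count of 0 allows up to 1.79e-05% of counts. In TSeL+L the columns had 79260, 78117 and 78037, a mean of 0.464% of counts. The 5 libraries with Krtap transcripts in number were therefore PBS replicate 3, the 3 TL+L samples and TSeL+L, and the other 3 had almost none.

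**Figure D1:**
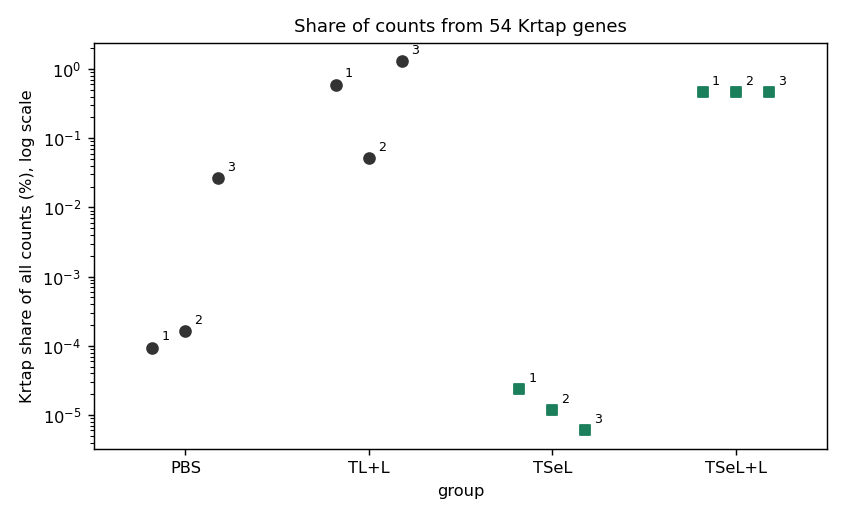
Share of all counts that came from the 54 Krtap genes (%, log axis) in each of the 12 columns, by group; circles are samples and squares are near-identical columns of 1 sample, each marked with its number. PBS replicate 3 (0.0265%) lies closer to TL+L replicate 2 (0.0516%) than to PBS replicates 1 and 2 (9.43e-05% and 1.64e-04%).

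Per length, the leading transcripts were the same 3 high glycine-tyrosine genes in the 4 PBS and TL+L libraries with Krtap transcripts. In FPKM (fragments per kilobase of transcript and depth), Krtap8-1 was followed by Krtap22-2 and then by Krtap7-1 in each of them. By counts Krtap8-1 also led, but Krtap22-2 did not come next. In TL+L replicate 3 Krtap15, high sulfur by number, had 22315 counts, Krtap7-1 21717 and Krtap22-2 8121. The Krtap8-1 level was 105 FPKM in PBS replicate 3, and 2185, 192 and 5208 in TL+L replicates 1, 2 and 3. Krtap22-2 was at 69.2 FPKM in PBS replicate 3 and at 1874, 136 and 4587 in TL+L. Krtap7-1 was at 63.2 FPKM in PBS replicate 3 and at 1541, 117 and 3780 in TL+L. Among the low members, Krtap20-2 was at 3.92, 0 and 3.99 FPKM in TL+L, Krtap5-3 at 5.10, 0.48 and 0.89, and Krtap13 at 0.19, 0 and 0.

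**Figure D2:**
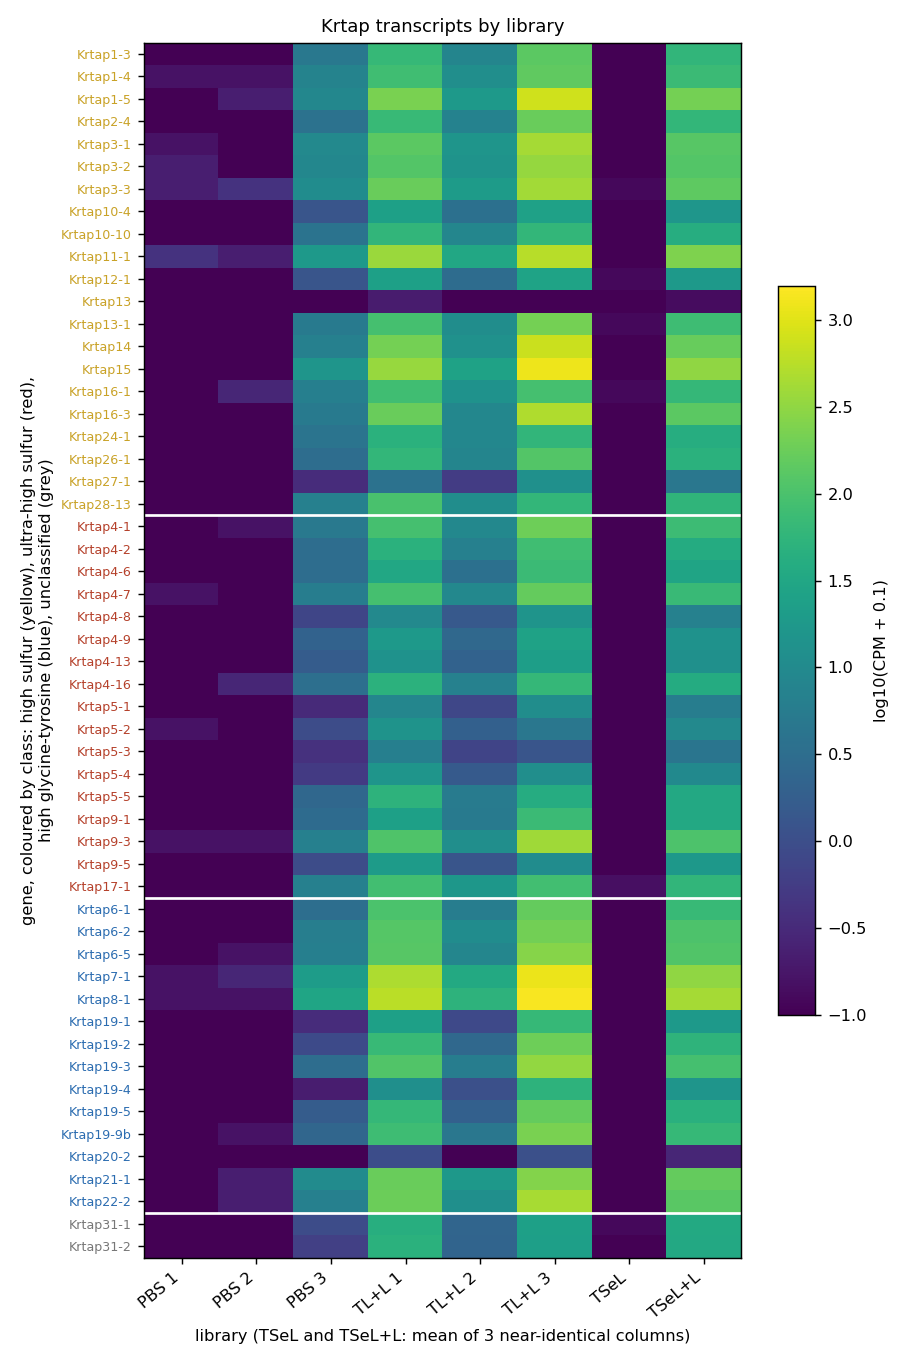
Level of each of the 54 Krtap genes (rows, in class order, name colours giving the class) in the 8 samples (columns), as log10 CPM, counts scaled to library size, after a small constant was added. The rows brighten together in TL+L replicates 1 and 3 and TSeL+L, are intermediate in PBS replicate 3 and TL+L replicate 2, and are dark in PBS replicates 1 and 2 and in TSeL.

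Krtap levels were higher in TL+L than in PBS samples, in abundant and rare members alike, but few members passed the test. In 52 of the 53 tested members the lowest TL+L sample was above the highest PBS sample in CPM, counts scaled to library size, a separation seen in 20.6% of all 15791 genes tested, and Krtap20-2 was the exception because TL+L replicate 2 had none. By edgeR's quasi-likelihood test with adjustment over all genes, 9 of 53 members rose and none fell, against 12.8% of all genes called in either direction, 5.67% called higher and 7.17% called lower. All 53 had an unadjusted p under 0.05 by edgeR, as did 5731 of the 15791 genes. The median log2 fold change of the members was 5.82, against 0.01 for all genes. TL+L replicate 2 was the lowest TL+L sample in 53 of 53, against 40.9% of all genes. The count of calls changed with single libraries, among all genes as well as among members. Leaving out PBS replicate 1, 2 or 3 or TL+L replicate 1 or 3 left 0 members called, while 0.101 to 1.16% of all genes were called. Leaving out TL+L replicate 2 gave 46 of 53 members, and 6299 of 15748 genes in all. In bulk skin, more cells of a type and more RNA per cell cannot be told apart.

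The 9 that rose came from subfamilies 5, 10, 12, 19 and 31. Krtap31-2 had 0, 0 and 9 counts in PBS and 912, 38.5 and 416 in TL+L, and rose by 7.03 on the log2 scale (SE 1.52, edgeR adjusted p = 0.0374). Its near-identical neighbour Krtap31-1 had 0, 0 and 14 counts in PBS and 824, 39.5 and 438 in TL+L, and rose by 6.35 (SE 1.49, edgeR adjusted p = 0.0429). In both genes replicate 1 was the highest TL+L sample, unlike in most members, and the groups did not overlap.

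Among the cysteine-rich subfamily 5, Krtap5-4 had 0, 0 and 7 counts in PBS and 287, 25 and 213 in TL+L, a log2 fold change of 6.01 (SE 1.31, edgeR adjusted p = 0.0377). Krtap5-1 had 0, 0 and 3.7 counts in PBS and 158, 11.99 and 205 in TL+L, a log2 fold change of 6.28 (SE 1.42, edgeR adjusted p = 0.0400). The other 3 members of that subfamily did not pass. For Krtap5-5, the most abundant of them, the counts were 0, 0 and 41.0 in PBS and 985, 95.4 and 724 in TL+L, with a log2 fold change of 5.31 and an edgeR adjusted p of 0.0564.

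Subfamily 19 encodes short proteins of mostly glycine and tyrosine. Krtap19-2 had 0, 0 and 13 counts in PBS and 1292, 44 and 3321 in TL+L, and rose by 8.31 on the log2 scale (SE 1.90, edgeR adjusted p = 0.0414). Krtap19-1 had 0, 0 and 4 counts in PBS and 462, 13 and 1179 in TL+L (log2 fold change 8.43, SE 1.95, edgeR adjusted p = 0.0422). Krtap19-4 also passed (edgeR adjusted p = 0.0384); with 2 PBS counts in all and 1173 in TL+L, its ratio was 535, with an exact 95% interval of 148 to 4420 that covers counting error only. The remaining 2 calls were Krtap10-4 (log2 fold change 5.44, SE 1.32, edgeR adjusted p = 0.0456) and Krtap12-1 (5.48, SE 1.37, edgeR adjusted p = 0.0481).

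The most abundant members did not pass. Krtap8-1 had 1, 1 and 505 counts in PBS and 11153, 906 and 26167 in TL+L, with 10.01 ± 17.23 CPM in PBS and 700.8 ± 710.6 CPM in TL+L (SD, n = 3). Its log2 fold change was 6.13 (SE 2.27, edgeR adjusted p = 0.109). Krtap7-1 had 1, 3 and 350 counts in PBS and 8978, 632 and 21717 in TL+L, a log2 fold change of 6.36 with an edgeR adjusted p of 0.0904. In both, the groups did not overlap and TL+L replicate 2 was 1.72 and 1.74 times PBS replicate 3 in CPM. Krtap15 had 0, 0 and 264 counts in PBS and 6683, 459 and 22315 in TL+L (log2 fold change 6.69, edgeR adjusted p = 0.0934), and Krtap11-1 had 5, 2 and 300 in PBS and 6961, 581 and 9933 in TL+L (5.71, edgeR adjusted p = 0.0822). Over the 53 members, log2 fold changes ran from 4.50 in Krtap5-2 to 8.83 in Krtap19-4.

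TSeL skin had almost no Krtap transcript, as PBS replicates 1 and 2 did. Against PBS, 0 of 53 members were called by edgeR and 0 had an unadjusted p under 0.05, while 0.0% of all genes were called and 3112 had an unadjusted p under 0.05; DESeq2 called 6 members lower and 8.39% of all genes in either direction. TSeL was below the lowest PBS sample in 6 of 53 members, against 33.4% of all genes. Most members were at 0 in PBS replicate 1 as well, so being lower could not be seen there at this depth. The 7 TSeL counts fell on Krtap17-1 (2 counts) and on 5 other members with 1 count each, Krtap3-3, Krtap12-1, Krtap13-1, Krtap16-1 and Krtap31-1.

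TSeL+L skin held Krtap transcripts within the range of TL+L skin. It was above the highest PBS sample in 53 of 53 tested members, against 35.9% of all genes, and inside the range of the 3 TL+L samples in 53 of 53, against 80.1% of all genes. That range is wide, with a summed Krtap CPM 25.2 times higher in TL+L replicate 3 than in replicate 2. A place inside it therefore says little about likeness to TL+L. Krtap8-1 had 7977, 7737 and 8311 counts in the 3 columns, between TL+L replicate 2 and replicate 1. None of the 53 passed against PBS by edgeR, with 0.0127% of all genes called, 0.00633% higher and 0.00633% lower. An unadjusted edgeR p under 0.05 was found in 51 members and in 3260 of the 15791 genes. DESeq2 called 2 members and 9.42% of all genes. Leaving out TL+L replicate 2, whose spread the fit shares among groups, gave 13 members and 13.7% of all genes by edgeR. Against TL+L the members had a median log2 difference of -0.30, and for Krtap8-1 the log2 difference was -0.68 (SE 2.66), smaller than its SE.

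Between TSeL+L and TSeL the difference was large in size but had 1 sample on either side. With TSeL at 0 and a floor of 3 counts per sample, Krtap8-1 was at least 2090-fold higher in TSeL+L, Krtap7-1 at least 1540-fold and Krtap15 at least 1520-fold. Krtap27-1, with 75, 74 and 96 counts in the TSeL+L columns, was at least 21.3-fold higher, and Krtap5-3 at least 19.8-fold. Krtap20-2, at 5, 1 and 4 counts, was too low for a fold. By edgeR 0 of 53 were called, with 0.0% of all genes called. An unadjusted edgeR p under 0.05 was found in 36 members and in 1912 of the 15791 genes. DESeq2 called 10 members and 2.30% of all genes.

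The make-up of the Krtap counts differed between libraries by more than counting error. High-sulfur members gave 48.4% of Krtap counts in PBS replicate 3, 45.9%, 49.5% and 49.1% in TL+L replicates 1, 2 and 3, and 47.3% in TSeL+L, a narrow range. Ultra-high-sulfur members gave 17% in PBS replicate 3 (exact 95% interval 16 to 18.2%), 12.8%, 17.5% and 10.1% in the TL+L samples, and 13.1% in TSeL+L. High glycine-tyrosine members gave 34.0% in PBS replicate 3 (32.6 to 35.4%), 39.6%, 32.2% and 40.4% in TL+L, and 38.0% in TSeL+L. The libraries with few Krtap counts, PBS replicate 3 and TL+L replicate 2, thus had a larger ultra-high-sulfur and a smaller glycine-tyrosine share than the 3 with many.

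**Figure D3:**
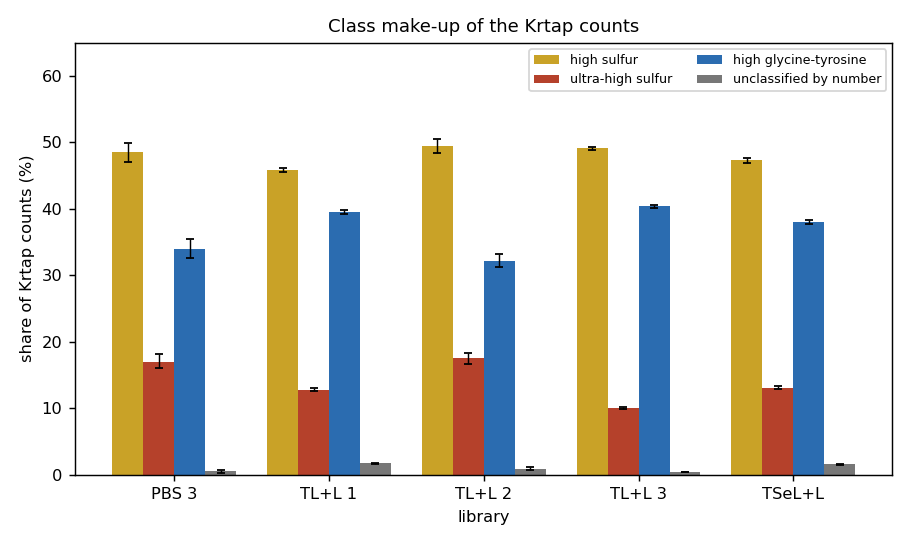
Share of the Krtap counts (%) from each class in the 5 libraries with Krtap transcripts in number; bars are single libraries and error bars are exact 95% intervals for counting error. The ultra-high-sulfur bar is tallest in PBS replicate 3 (17%) and TL+L replicate 2 (17.5%) and shortest in TL+L replicate 3 (10.1%).

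Single subfamilies moved more than the classes. Subfamily 19 gave 3.01% of Krtap counts in PBS replicate 3 and 3.34% in TL+L replicate 2, but 6.75% and 8.15% in TL+L replicates 1 and 3 and 6.72% in TSeL+L. Subfamily 17, with Krtap17-1 as its one member, went the other way, at 2.51% and 3.40% in the first pair and at 1.60%, 0.678% and 1.33% in the others. Subfamily 10 gave 1.87% in PBS replicate 3 and 2.43% in TL+L replicate 2, against 1.55%, 0.690% and 1.33%. Subfamily 8, the single gene Krtap8-1, stayed between 10.2% and 11.7% in all 5.

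TL+L replicates 1 and 3 both had high Krtap content, yet they differed in which members carried it. The summed Krtap CPM was 2.31 times higher in replicate 3, while single members ran from 0.184 times in Krtap5-3 to 4.13 times in Krtap19-4, with a median of 1.82. Of 53 tested members 44 were higher in replicate 3, against 49.4% of all genes, and 9 were lower. All 14 high glycine-tyrosine members were higher (median 2.53), as were 19 of 20 high-sulfur members (median 2.22) and 11 of 17 ultra-high-sulfur members (median 1.48), and both subfamily 31 genes were lower (median 0.52). Counting error alone could not place 5 of the 53 on either side of 1: Krtap20-2, with 17 counts in each library (ratio 1.05, exact 95% interval 0.505 to 2.19), Krtap10-4, Krtap10-10, Krtap12-1 and Krtap17-1. Intervals lay above 1 in 13 of 14 high glycine-tyrosine, 16 of 20 high-sulfur and 11 of 17 ultra-high-sulfur members.

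The 9 lower members included 4 of the 5 genes of subfamily 5. Krtap5-3 had 120 counts in TL+L replicate 1 and 20.97 in replicate 3, a CPM ratio of 0.184 (exact 95% interval 0.11 to 0.295), and Krtap5-2 had a ratio of 0.316 (0.244 to 0.406). Krtap5-5 was at 0.774 (0.702 to 0.853) and Krtap5-4 at 0.782 (0.652 to 0.936). The rest of the 9 were Krtap31-2 at 0.480, Krtap31-1 at 0.560, Krtap9-5 at 0.542, Krtap28-13 at 0.621 and Krtap17-1, whose 0.979 (0.913 to 1.05) was within counting error of no difference. The sisters of Krtap9-5 in subfamily 9 were on the opposite side, with Krtap9-3 at 3.61 (3.44 to 3.79) and Krtap9-1 at 2.92. Krtap15 (3.52), Krtap14 (3.48), Krtap1-5 (3.38) and Krtap27-1 (3.38) were also far above the summed ratio.

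In human hair follicles, genes of subfamilies 5, 10, 12, 17 and 24 are known from the cuticle, the outer cell layer of the shaft, and those of subfamilies 7 and 8 from the cortex. This grouping of members was made after their values were seen, and the other subfamilies were not placed in a layer. The ratio of TL+L replicate 3 to replicate 1 was 0.184 to 1.36 for the 5 genes of subfamily 5. For the 2 genes of subfamily 10 it was 1.00 and 1.04. It was 1.11 for Krtap12-1, 0.979 for Krtap17-1 and 1.22 for Krtap24-1, against 2.55 for Krtap7-1 and 2.47 for Krtap8-1. Among unplaced subfamilies, subfamily 4 ran from 1.24 to 2.22, subfamily 9 from 0.542 to 3.61 and subfamily 3 from 2.34 to 3.09. Unplaced genes thus lay at the ratios of both layers, and a split by layer was not tested. Hair shaft keratins also spread between these libraries: 10 of the 14 measured were higher in replicate 3 and 4 were lower, from 0.860 times in Krt32 to 2.56 times in Krt39 (median 1.87). Of the 7 other hair shaft proteins 6 were higher, from 0.957 times in S100a3 to 2.18 times in Gprc5d, and all 8 inner root sheath genes were higher, from 1.32 times in Krt73 to 5.92 times in Krt72. These are 2 samples of 1 group, so the contrast describes those libraries, and what sets them apart was not tested.

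**Figure D4:**
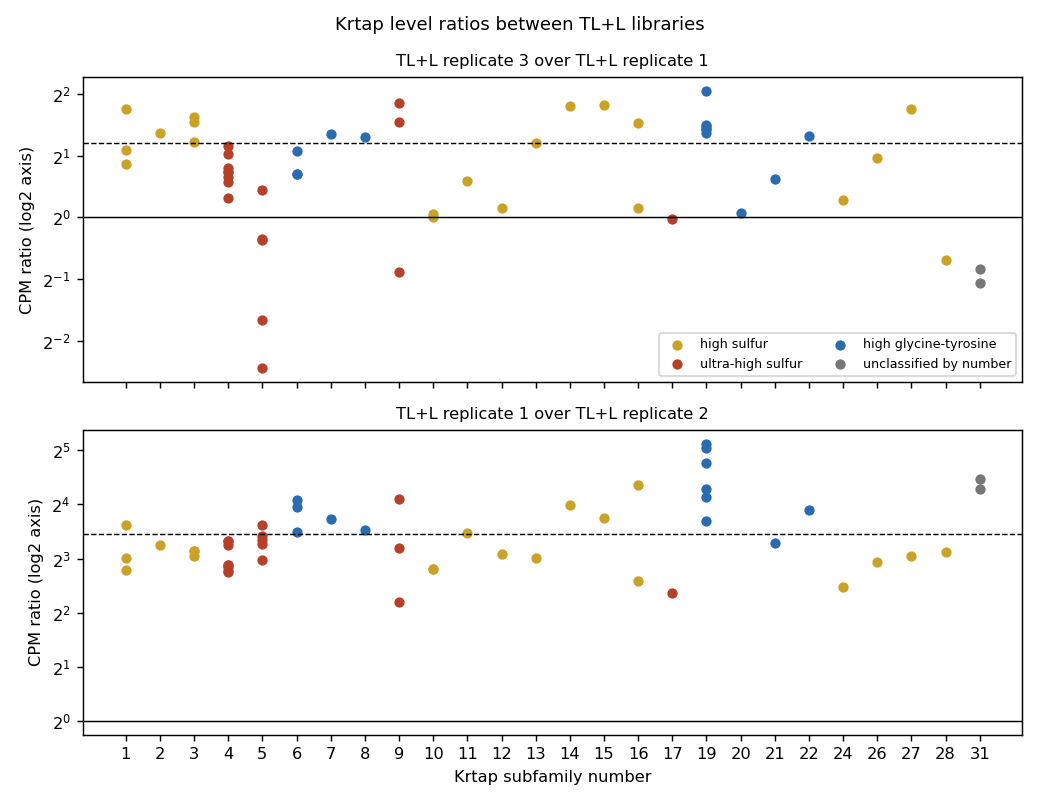
CPM ratio of each Krtap gene between TL+L libraries (log2 axis) by subfamily number, replicate 3 over replicate 1 above and replicate 1 over replicate 2 below; points are genes coloured by class, the solid line marks 1 and the dashed line the ratio of the summed CPM. In the upper panel subfamilies 5, 28 and 31 lie mostly below 1 and subfamily 19 lies above the dashed line at 2.31, while in the lower panel every gene lies above 1 and subfamilies 19 and 31 are high.

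Across members, the ratio of TL+L replicate 3 to replicate 1 fell with cysteine content, with a Spearman rho of -0.55 over 53 genes, and it had a rho of 0.26 with glycine and tyrosine content. For TL+L replicate 1 over replicate 2 the values were -0.51 and 0.51 over 52 genes. Those 2 relations share TL+L replicate 1, and the genes share libraries, clusters and sequence, so the values are descriptions. Pairs that differ in treatment varied. For TL+L replicate 1 over PBS replicate 3, rho was -0.47 with cysteine and 0.45 with glycine and tyrosine. For TL+L replicate 3 over TSeL+L the values were -0.61 and 0.41, and for TSeL+L over TL+L replicate 1 they were -0.2 and -0.13. For TL+L replicate 2 over PBS replicate 3, rho was -0.01 with cysteine and -0.04 with glycine and tyrosine. In that pair all 52 members with counts in both were higher in TL+L replicate 2, from 1.11 times in Krtap4-6 (60 against 52 counts, 0.752 to 1.64) to 8.17 times in Krtap19-4 (17 against 2 counts, 1.94 to 72.9), with a median of 1.9.

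From TL+L replicate 2 to replicate 1 the summed Krtap CPM was 10.9 times higher. Krtap19-5 differed most, with 32 counts in replicate 2 and 1198 in replicate 1, a ratio of 34.8 (24.5 to 51.2), and Krtap9-1 least, at 4.57. The high glycine-tyrosine members had a median ratio of 15.5, against 8.36 for high-sulfur and 9.10 for ultra-high-sulfur members. TSeL+L lay close to TL+L replicate 1 in make-up: the summed ratio was 0.795, 49 of 53 members were lower in TSeL+L, and the median was 0.781, between 0.203 in Krtap20-2 and 1.41 in Krtap9-1.

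Hair shaft keratins and inner root sheath genes were highest in the same 5 libraries as the Krtap genes. The sums of other follicle lists did not set PBS replicate 3 apart to the same extent, though some of their single genes did. The summed CPM of 14 measured hair shaft keratins, the filament proteins of the shaft, was 18, 4.86 and 279 in PBS, 5580, 693 and 10300 in TL+L, 22.1 in TSeL and 3990 in TSeL+L. Inner root sheath genes summed to 186, 17.1 and 1660 CPM in PBS, 14100, 4580 and 27300 in TL+L, 145 in TSeL and 14200 in TSeL+L. The 7 other hair shaft proteins summed to 155, 186 and 266 CPM in PBS, 2170, 554 and 2780 in TL+L, 97.8 in TSeL and 1560 in TSeL+L. Most of the PBS sums came from Tgm3, Psors1c2 and Hephl1. S100a3 was at 2.81, 0.860 and 84.7 CPM in PBS and Gprc5d at 0.122, 0.0615 and 9.89, while Tgm3 was lowest in PBS replicate 3. The 10 hair follicle transcription factors summed to 217, 175 and 224 CPM in PBS, and to 1020, 408 and 1070 in TL+L, 253 in TSeL and 789 in TSeL+L. Prdm1, Ovol1 and Bcl11b gave most of the PBS sums, so the likeness of PBS replicates 3 and 1 in the sum does not hold for each factor. Hoxc13 was at 3.36, 0.799 and 10.4 CPM in PBS, Msx2 at 3.23, 0.799 and 8.41 and Dlx3 at 13.1, 3.87 and 26.9. Prdm1, Foxq1 and Bcl11b were lowest in PBS replicate 3, and the other factors were highest there.

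The Krtap sum was 0.976, 1.72 and 269 CPM in PBS, 5400, 494 and 12500 in TL+L, 0.163 in TSeL and 4290 in TSeL+L. The ratio of the 2 sums was 0.713 to 1.21 in the 5 libraries with Krtap transcripts, and 0.0542, 0.354 and 0.00738 in PBS replicate 1, PBS replicate 2 and TSeL. Of the hair keratin CPM in TSeL, 16.55 was Krt35, a keratin that appears early in the forming shaft, and of that in PBS replicate 1, 10.98 was Krt35.

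In TL+L against PBS, edgeR called 2 of 14 hair shaft keratins higher, 3 of 7 other hair shaft proteins and 8 of 10 hair follicle transcription factors. It called 0 of 8 inner root sheath genes (all 8 with an unadjusted edgeR p under 0.05). Over all genes, 5.67% were called higher, and 5731 of 15791 had an unadjusted edgeR p under 0.05. Hoxc13, a homeobox factor needed for hair keratin expression, was at 3.36, 0.799 and 10.4 CPM in PBS and at 109, 28.1 and 102 in TL+L, and rose by 4.03 on the log2 scale (edgeR adjusted p = 0.0426). Foxn1, the factor lost in nude mice, was at 5.73, 5.78 and 8.88 CPM in PBS and at 79.0, 17.2 and 99.4 in TL+L, and rose by 3.26 (edgeR adjusted p = 0.0321). In TSeL against PBS edgeR called 0 of the 10 factors (Gata3 alone with an unadjusted p under 0.05); 9 of the 10 had a higher level in TSeL, with a median log2 difference of 0.56, and their sum was above each PBS sample. Their lists were chosen with results of these samples known.

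Markers of other skin cell types were set beside these results, with edgeR calls for TL+L against PBS, and their part in them was not tested. Of all genes, edgeR called 5.67% higher and 7.17% lower in that comparison. Melanocyte genes, which are active in the pigment cells of growing follicles, rose in 6 of 6, with a summed level of 23.4 to 104 CPM in PBS, 231 to 980 in TL+L, 276 in TSeL and 463 in TSeL+L. Neutrophil genes fell in 4 of 6, namely Cxcr2, Csf3r, Ly6g and Retnlg. Csf3r, the highest of them, was at 441.3, 450.7 and 499.9 CPM in PBS and at 97.27, 147.5 and 82.3 in TL+L. Their list summed to 4830 to 7620 CPM in PBS, 1170 to 4780 in TL+L, 3750 in TSeL and 1660 in TSeL+L. Most of those sums came from S100a8 and S100a9, which were not called. Epidermal genes rose in 1 of 8 and ranged from 7400 to 10800 CPM in PBS and from 10800 to 11900 in TL+L, with 7060 in TSeL and 15000 in TSeL+L. Skeletal muscle genes rose or fell in 0 of 6 (0 with an unadjusted p under 0.05) and ranged from 8670 to 24900 CPM in PBS and from 3890 to 21600 in TL+L, with 83700 in TSeL and 17800 in TSeL+L. Adipocyte genes rose in 1 of 5 (312 to 459 CPM in PBS, 506 to 1290 in TL+L, 426 in TSeL, 536 in TSeL+L) and cell cycle genes in 1 of 6 (248 to 322, 387 to 645, 370 and 532 CPM in the same groups). In PBS replicate 3 the melanocyte sum, 57.7 CPM, lay inside the range of the other PBS samples, while its Krtap sum was above both.

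**Figure D5:**
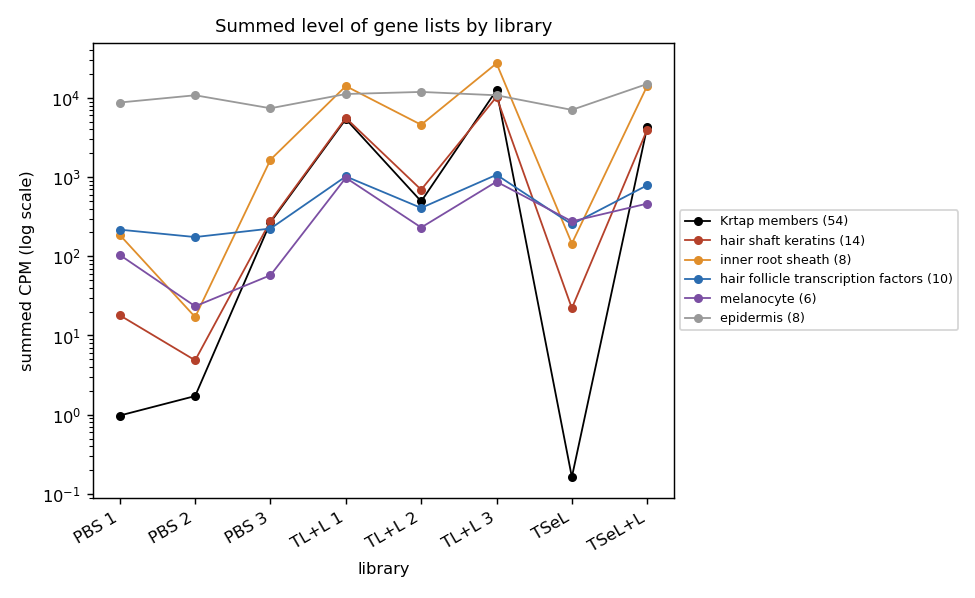
Summed CPM (log axis) of the Krtap genes and 5 marker lists in the 8 samples, with the number of genes in brackets; points are samples and lines join points of 1 list. Krtap genes, hair shaft keratins and inner root sheath genes peak in TL+L replicate 3, while the epidermal sum stays between 7060 and 15000 CPM.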

How the data were processed

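The labels' protocols give flash-frozen skin, Trizol extraction, oligo-dT selection and an Illumina TruSeq RNA kit. The deposited gene table holds expected counts and FPKM made by the authors. Bowtie2 and RSEM were among the tools, per the submitters' processing notes, while versions, settings, strand, genome build and annotation were not given in the sources used here. FPKM as deposited by the authors was used to order genes by level in PBS and TL+L, with no test. Another 18 columns of per-sample values, the TPM columns and the FPKM of TSeL and TSeL+L, were not used. Of the expected counts 88.7% were whole, with a tolerance of 0, and the rest were rounded.

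Column codes name the samples. TS was taken to mean TSeL and TSL to mean TSeL+L, so each value of these groups rests on that choice. The 3 columns of either code share a number and could not be tied to single samples; as they were near counting noise, their mean was used as 1 sample. Genes kept by filterByExpr (15791 of 18858) were tested two-sided by the robust quasi-likelihood F-test of edgeR 4.0.16 (R 4.3.3), with TMM factors of 0.852 to 1.10 and 1 coefficient per group. The common biological coefficient of variation was 0.278. TSeL and TSeL+L, with 1 sample each, borrow the spread of PBS and TL+L. The threshold was a Benjamini-Hochberg adjusted p of 0.05 over all genes. No permutation test was used, since 3 against 3 samples allow no p under 0.1.

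Members, marker lists and classes were chosen with earlier results of these data known. Named members were the most abundant in each subfamily and the called ones with the smallest p; members that mark the ends of a range, or are counted in a group of 5 or fewer, were named after their values were seen. Codon shares and coding identity came from the GENCODE M21 annotation (54 of 54 members), and promoter windows from RefSeq. Intervals are exact (Clopper-Pearson) at 95% and cover counting error only. The test was first tried on simulated counts. Alternatives used DESeq2 1.42.0 and limma 3.58.1.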

Additional observations from a re-analysis of the deposited data

How the results depend on the processing

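Direction held for the 35 named members in TL+L against PBS: over 17 alternatives 0 of 589 values reversed, 52 lost the call, 82 gained it and 455 kept their side. The number of members called did not hold. For TL+L against PBS, 9 in the main setting, DESeq2 gave 22 and limma-voom 0 (21 with an unadjusted p under 0.05). Library totals gave 14, 12 columns as separate samples 52, and leaving out 1 sample 0 to 46. Among all 15791 genes, 2029 were called in the main setting, 4064 by DESeq2, 2056 by limma-voom and 2423 with library totals. With 12 columns, 7164 of 15422 genes were called. For TSeL against PBS, 0 members in the main setting, DESeq2 gave 6 members and 1325 of the 15791 genes. For TSeL+L against PBS, also 0 members, DESeq2 gave 2, the 2 compared groups alone 9, and 12 columns 52. Among all genes these settings called 1487 of 15791, 1802 of 15515 and 7093 of 15422. Leaving out 1 sample gave 0 to 13 members. For TSeL+L against TSeL, also 0 members, DESeq2 gave 10 and 12 columns 52. Among all genes these settings called 363 of 15791 and 6618 of 15422. No alternative called a member for TSeL+L against TL+L, where Krtap8-1 reversed from -0.68 to 0.32 with limma-voom and ran from -1.23 to 0.45 with 1 sample left out. Counting near-identical columns as separate samples understates the spread. The cause of the other changes was not tested. Library totals in place of TMM shifted the all-gene median log2 difference from 0.01 to 0.15 for TL+L against PBS.

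Same-numbered PBS and TL+L samples deviated together with correlations of -0.175, 0.13 and 0.212, so the numbers were not taken to pair samples; with the number as a replicate block, 43 of 51 members tested were called and 7.07% of all genes. TSeL+L against TSeL cannot be fitted with those groups alone, having no residual degrees of freedom. A comparison by protein identity was not run; coding identity was used, a choice made after seeing the data. Without the 8 members in 4 pairs of at least 95% coding identity, the mean Krtap share went from 0.00891% to 0.00763% in PBS and from 0.648% to 0.566% in TL+L. Depth limits what can be said of TSeL and PBS replicates 1 and 2, where most members had 0 counts.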
